A study of Mus musculus with 9 samples.

Results

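Cathepsins are proteases that work mainly inside lysosomes, the acidic organelles in which cells break down proteins taken up from outside or delivered by autophagy. The genes described here were 10 named lysosomal cathepsin genes: Ctsa, Ctsb, Ctsc, Ctsd, Ctsf, Ctsh, Ctsk, Ctsl, Ctss and Ctsz. They were found by symbol in a deposited expression table of 15228 mouse genes, which listed 9 of them. Ctsk, the gene of the collagen-degrading cathepsin of bone, was not listed in that table and was not analysed here.

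The cells came from wild-type C57BL/6J mice of both sexes, aged 6 to 8 weeks at surgery. Ctrl libraries were made from intact retinas. ONC libraries were made from retinas collected 3 d after optic nerve crush (ONC), a mechanical injury to the axons of retinal ganglion cells (RGCs), with vehicle (PBS) injected into the eye. TPEN libraries were made 3 d after the same crush, with the membrane-permeable zinc chelator TPEN (100 μM) injected into the eye immediately after the injury in place of vehicle. No injection is described for Ctrl, so crush and injection cannot be told apart in any comparison with Ctrl. The words after ONC therefore mean after crush with that injection. Cells were sorted for CD90.2 (the product of Thy1) and for the lack of other surface antigens, and each group had 3 libraries. The sources used here do not say that a group's 3 libraries stem from separate mice, so p-values measure only the spread between these libraries, which may be technical.

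The 9 libraries held between 19946993 and 23109754 reads. The markers of RGCs were at unlike levels. Of 12, 10 were listed, and 4 of these had means under 1 RPKM in Ctrl (reads normalized for exon length and library size, a level that can be roughly compared between genes). The RGC genes Rbpms, Pou4f1 and Slc17a6 had means of 0.605, 0.571 and 0.268 RPKM in Ctrl, and Stmn2 had 0.686 RPKM. The others were the neurofilament genes Nefl, Nefm and Nefh (258, 49.5 and 31.1 RPKM), Sncg (19.9 RPKM), the sort marker Thy1 (4.74 RPKM) and Isl1 (2.09 RPKM). The rod gene Gnat1 had 11521 RPKM. The 8 rod markers summed to 19061 to 19877 RPKM in Ctrl, 16764 to 16982 RPKM in ONC and 17980 to 18086 RPKM in TPEN. The name RGCs is therefore used here only for the sort, and a level is an average over a mixed population. In such bulk libraries, fewer cells of a type and less RNA per cell cannot be told apart.

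Most cathepsins are cysteine proteases of the papain family. Ctsb, Ctsl and Ctsf encode broadly acting enzymes of this family. Ctsz encodes a carboxypeptidase, Ctsh an aminopeptidase, and Ctsc a dipeptidyl peptidase that activates serine proteases of leukocyte granules. Ctss encodes cathepsin S, which is abundant in microglia, macrophages and other antigen-presenting cells, where it trims the invariant chain of MHC class II, and which stays active at neutral pH. Ctsd encodes the main aspartic protease of the lysosome, and Ctsa a serine carboxypeptidase that also protects neuraminidase and beta-galactosidase. Inactive proenzymes travel to the lysosome largely on mannose 6-phosphate receptors and are matured there by proteolysis. Outside the lysosome, mature enzymes of the papain family can be blocked by cystatins. Transcription factors of the MiT/TFE group, such as TFEB, bind E-boxes in the promoters of many lysosomal genes.

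The 3 cathepsins shown first are those with a change of at least 2-fold in mean level after ONC and a promoter window that ended exactly where the gene began in the deposited table. RefSeq promoter windows were found for 8 of the 10 named genes, and Ctsb and Ctsh were not matched. Each sequence below is the 250 bases before the transcription start in GRCm38.p6, read 5′ to 3′ on the strand of the gene, with matches to searched motifs in capitals. The window of Ctss is chr3:95526536-95526785 on the plus strand, that of Ctsc chr7:88277835-88278084 on the plus strand, and that of Ctsz chr2:174439040-174439289 on the minus strand.
Ctss: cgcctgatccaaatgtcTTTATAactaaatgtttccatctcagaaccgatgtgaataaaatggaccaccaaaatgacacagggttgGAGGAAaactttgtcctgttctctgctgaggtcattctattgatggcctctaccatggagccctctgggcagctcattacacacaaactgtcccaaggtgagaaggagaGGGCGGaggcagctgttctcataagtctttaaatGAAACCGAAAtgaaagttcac
Ctsc: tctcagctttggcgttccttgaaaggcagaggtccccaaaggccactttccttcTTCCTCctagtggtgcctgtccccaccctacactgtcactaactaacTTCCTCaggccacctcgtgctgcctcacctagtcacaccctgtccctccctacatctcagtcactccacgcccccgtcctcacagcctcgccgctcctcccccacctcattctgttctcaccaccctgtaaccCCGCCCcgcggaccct
Ctsz: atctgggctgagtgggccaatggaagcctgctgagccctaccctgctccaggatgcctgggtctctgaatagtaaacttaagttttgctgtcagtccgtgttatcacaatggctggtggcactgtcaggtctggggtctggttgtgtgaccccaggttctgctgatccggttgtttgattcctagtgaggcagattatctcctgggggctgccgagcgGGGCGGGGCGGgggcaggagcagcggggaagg

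The Ctss window held an interferon response element, a pair of GAAA with any 2 bases between them, at 21 to 12 bases before the start. This motif occurred on either strand in 2.98% of all 32851 promoter windows of the same length. Ctss also held GAGGAA, the core of the site of the myeloid factor PU.1, and Ctsc held it at 2 places on the opposite strand (TTCCTC), against 23.3% of all windows with at least 1 match. GC boxes (GGGCGG) stood in all 3 windows, as an overlapping pair in Ctsz, and in 32.7% of all windows. The other run of capitals in Ctss is a TATA box (TATAAA, on the opposite strand) far from the start, a motif found in 12.4% of windows. None of the 3 windows held CACGTG, the E-box at the centre of the site bound by TFEB. That E-box stood in the windows of Ctsd, at 2 places, of Ctsf and Ctsl, and of a second start of Ctsa, against 6.02% of all windows. No window of a named cathepsin held the full site (CACGTG directly between GT and AC, in 0.240% of windows) or an AP-1 site (TGANTCA, in 6.75%). These matches describe letters only, and binding was not measured.

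In intact retinas, the most abundant cathepsin transcript was Ctsf, at 43.3, 45.3 and 47.6 RPKM in the 3 Ctrl libraries. Ctsd (36.9 ± 2.14 RPKM, mean ± SD, n = 3 libraries) and Ctsb (34.6 ± 0.813 RPKM) followed, and the libraries of these 2 genes overlapped. Below them, and each without overlap with the next, came Ctsl (20.8 ± 0.549 RPKM), Ctsz (9.34 ± 1.47 RPKM), Ctsa (6.47 ± 0.172 RPKM) and Ctss (4.70 ± 0.636 RPKM). Ctsh (0.380 ± 0.0901 RPKM) and Ctsc (0.161 ± 0.0399 RPKM) rested on few reads, with 30 to 43 and 14 to 26 per Ctrl library. Both were under 0.5 RPKM in Ctrl, so they passed the filter for testing (a mean of 0.5 RPKM over the 9 libraries) through the injured groups. The sum of the 9 genes was 159 ± 5.34 RPKM in Ctrl, of which Ctss made up 2.95%. All these levels are per length of exon. A comparison between genes is less certain where exon bases are shared with another gene, mainly in Ctsd (34.4%), Ctsa (17.4%) and Ctsb (16.2%). The order of levels and the sum carry that uncertainty.

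**Figure D1:**
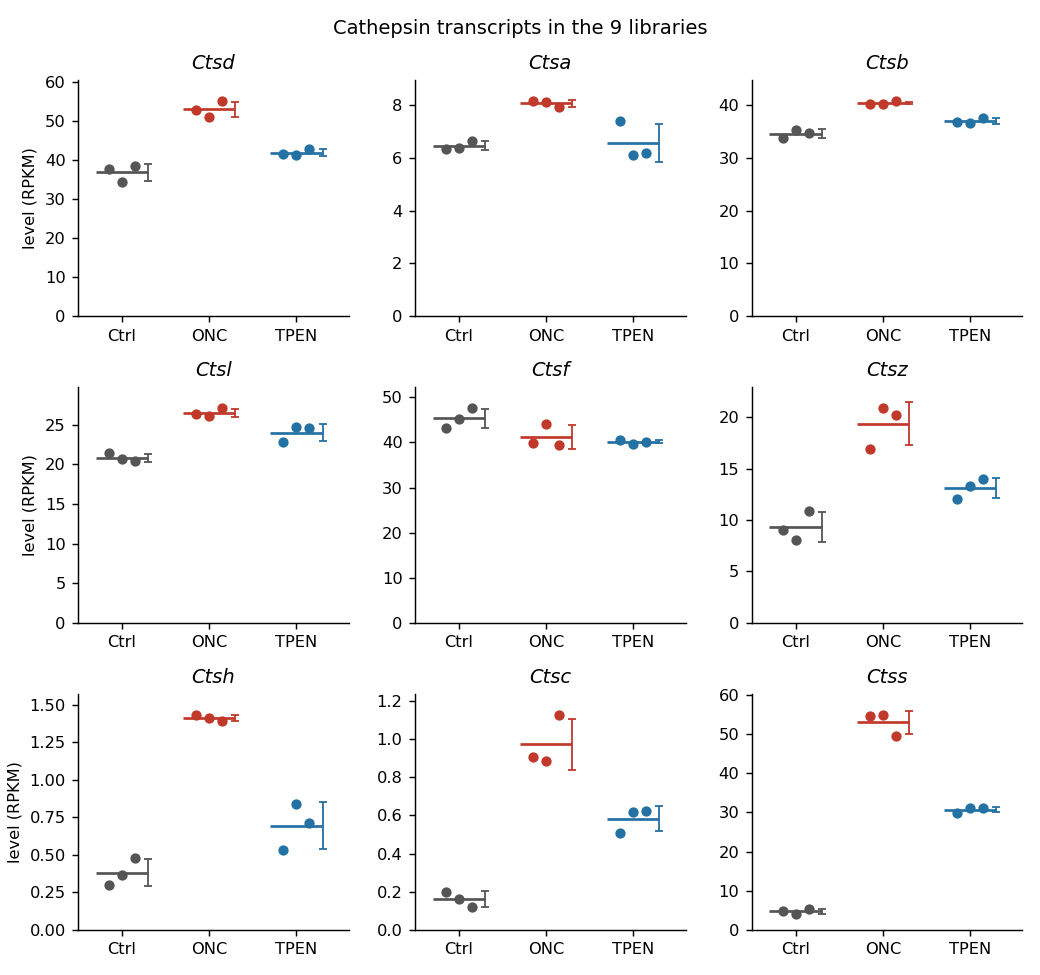
Level of each of the 9 listed cathepsins in each library (vertical axes in RPKM, each starting at 0 and with its own range). Points are libraries, horizontal lines are means and bars are the SD of 3 libraries. In 8 of the 9 panels every ONC library lies above every Ctrl library, and the exception is Ctsf.

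After ONC, cathepsin transcripts rose unequally. Ctss rose 11.3-fold in mean level, Ctsc 6.03-fold, Ctsh 3.72-fold and Ctsz 2.07-fold. The broadly expressed Ctsd, Ctsl, Ctsa and Ctsb rose by 44.1%, 27.4%, 24.9% and 16.8%. Ctsf was the one listed member that did not rise. Of the 9 listed members, 8 passed the test in ONC/Ctrl (limma with Benjamini-Hochberg adjustment over 13566 genes, adjusted p under 0.05) and all 8 were higher, where 11.7% of all genes tested were higher and 6.97% lower by that rule. With a further limit of 1.5-fold, 4 were higher (Ctss, Ctsc, Ctsh and Ctsz), against 4.58% of all genes, and 0 were lower, against 0.752%. Ctsc and Ctsh entered the test through the injured groups, so their part in these counts is not independent of the filter. At an unadjusted p under 0.05, limma had 1 lower member, Ctsf, and voom, which works on read numbers recovered from the levels, had it lower at an adjusted p under 0.05 as well. The adjusted p of these 8 members stayed under 0.05 in every alternative that tested them for any change, as opposed to a change beyond 1.5-fold. Ctsc and Ctsh were not tested where a mean of at least 1 RPKM was required. The 8 genes also had no overlap between groups, as had 20.7% of all genes in the same direction. The median log2 fold change of the members was 0.53, beside 0.02 over all genes tested.

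Ctss was at 4.73, 4.05 and 5.32 RPKM in Ctrl and at 54.7, 54.8 and 49.6 RPKM in ONC. Each ONC library was far above each Ctrl library. The log2 fold change on the log2(RPKM + 0.1) scale was 3.48 (SE, the standard error, 0.09, limma adjusted p = 6.29e-09). Ctss thereby moved from the seventh place among the 9 cathepsins in Ctrl to a level that overlapped that of Ctsd, the highest, in ONC. The gene lies on chromosome 3 (95526786 to 95556403, plus strand, GRCm38), with 8 separate exon regions of 1358 bases in all, and shares no exon base with another listed gene.

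Ctsc, whose product activates granule proteases, was at 0.200, 0.164 and 0.120 RPKM in Ctrl and at 0.906, 0.885 and 1.12 RPKM in ONC. Those ONC levels rest on 118 to 150 reads per library. The groups were well apart, and the log2 fold change was 2.04 (SE 0.18, limma adjusted p = 3.73e-05). The gene lies on chromosome 7 (88278085 to 88310888, plus strand). The aminopeptidase gene Ctsh was at 0.297, 0.365 and 0.476 RPKM in Ctrl and at 1.43, 1.41 and 1.39 RPKM in ONC. Its ONC libraries were nearly equal and lay above all Ctrl libraries, with a log2 fold change of 1.67 (SE 0.19, limma adjusted p = 1.94e-04). It lies on chromosome 9 (90054152 to 90076089, plus strand). For these 2 low genes the added 0.1 RPKM makes the log2 fold change smaller than the ratio of the means. On recovered read numbers, with voom, Ctsc had a value of 2.55 on the log2 scale, and with 1 RPKM added in place of 0.1 it had 0.76. The values of Ctsh were 1.89 and 0.81 in the same settings.

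Ctsz was at 9.07, 8.02 and 10.9 RPKM in Ctrl and at 17.0, 20.9 and 20.3 RPKM in ONC. The groups did not overlap, and the log2 fold change of this carboxypeptidase gene was 1.05 (SE 0.12, limma adjusted p = 1.83e-04). It lies on chromosome 2 (174427493 to 174439039, minus strand) and shares 10 exon bases with Nelfcd on the opposite strand.

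Ctsd, the aspartic protease gene, was at 37.7, 34.4 and 38.5 RPKM in Ctrl and at 53.0, 51.2 and 55.1 RPKM in ONC. The rise was small beside that of Ctss but larger than the spread within either group, with a log2 fold change of 0.53 (SE 0.05, limma adjusted p = 4.00e-05). Ctsd lies on chromosome 7 (142375911 to 142388038, minus strand), and 34.4% of its exon bases are shared with another listed gene model, RP23-145I16.3, on the same strand, so its reads are uncertain there.

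Ctsl was at 21.4, 20.6 and 20.4 RPKM in Ctrl and at 26.4, 26.1 and 27.0 RPKM in ONC. Ctsa was at 6.36, 6.38 and 6.67 RPKM in Ctrl and at 8.16, 8.14 and 7.94 RPKM in ONC. Ctsb was at 33.7, 35.3 and 34.8 RPKM in Ctrl and at 40.3, 40.3 and 40.7 RPKM in ONC. All ONC libraries of these 3 genes lay above all Ctrl libraries, and the log2 fold changes of 0.35, 0.32 and 0.22 had limma adjusted p of 2.68e-04, 0.0145 and 5.81e-04. Ctsl lies on chromosome 13 (64363214 to 64370306, minus strand), Ctsa on chromosome 2 (164832873 to 164841032, plus strand) and Ctsb on chromosome 14 (63122462 to 63145919, plus strand). Ctsa shares 17.4% of its exon bases with Neurl2 and Pltp, and Ctsb 16.2% with Fdft1, all on the opposite strand. The kit marks strand, but the sources used here do not say that strand was used in counting.

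Ctsf, on chromosome 19 (4855129 to 4860912, plus strand), was at 39.8, 44.2 and 39.4 RPKM in ONC. ONC replicate 2 lay within the range of Ctrl and the other ONC libraries below it. Its log2 fold change was -0.14 (SE 0.05, limma adjusted p = 0.0766). It passed without ONC replicate 2 (adjusted p = 0.0171), with voom (0.0125) and after quantile normalization (0.0283). Over the 16 alternatives that tested it for any change, its adjusted p lay between 0.0125 and 0.214.

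**Figure D2:**
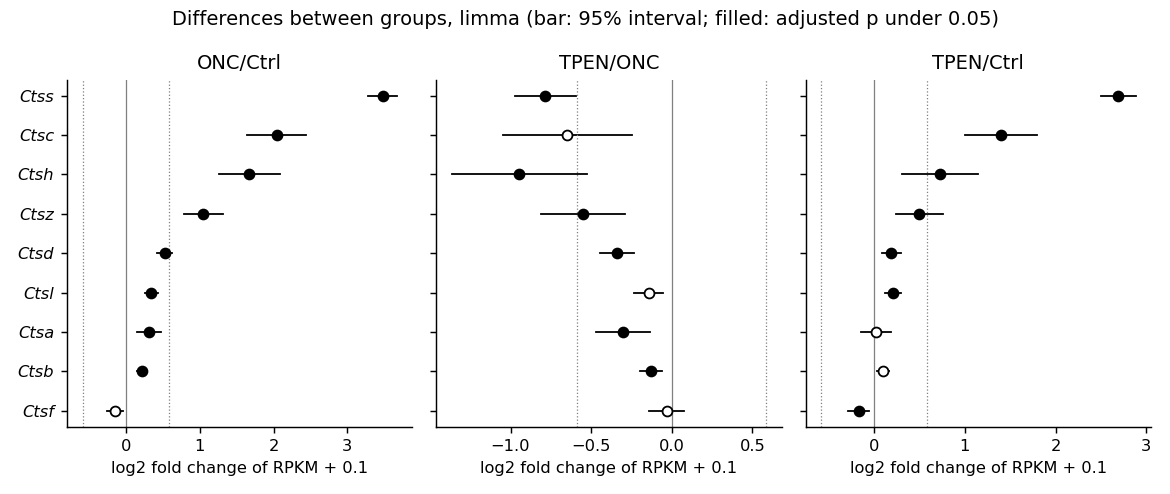
Log2 fold changes of the 9 cathepsins in ONC/Ctrl, TPEN/ONC and TPEN/Ctrl (horizontal axes, log2 of RPKM + 0.1; vertical dotted lines at 1.5-fold). Points are limma estimates, bars their 95% intervals, and filled points have an adjusted p under 0.05. The rise of Ctss in ONC/Ctrl (3.48) stands apart from those of Ctsd, Ctsl, Ctsa and Ctsb, which are between 0.22 and 0.53.

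With TPEN after ONC, 6 of the 9 cathepsins were lower than with vehicle, again by unequal amounts. Ctsh was 50.7% lower in mean level, Ctss 42.0%, Ctsz 32.1%, Ctsd 21.1%, Ctsa 18.8% and Ctsb 8.47%. Ctsc was 40.0% lower and Ctsl 9.47% lower, and neither passed the threshold. By the adjusted p alone, 4.14% of all genes tested were lower in this comparison and 3.24% higher. With the limit of 1.5-fold, 2 members were lower (Ctsh and Ctss), against 1.21% of all genes. In 8 of the 9 members no TPEN library reached an ONC library, as for 15.6% of all genes in that direction, and the median log2 fold change was -0.34, beside -0.01 over all genes. By limma 0 members were higher, with or without the limit of 1.5-fold (0.818% of all genes with it), and none was higher at an unadjusted p under 0.05 or with voom.

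Ctss was at 29.9, 31.1 and 31.2 RPKM in TPEN. These libraries were close together, below every ONC library and far above every Ctrl library. The log2 fold change in TPEN/ONC was -0.78 (SE 0.09, limma adjusted p = 7.27e-04). The adjusted p stayed under 0.05 in the 16 alternatives that tested Ctss for any change, but not in a test against a 1.5-fold change (limma's treat). Ctsh was at 0.534, 0.840 and 0.713 RPKM in TPEN, on 48 to 84 reads. Its TPEN libraries lay between the other groups, with a log2 fold change of -0.95 (SE 0.19, limma adjusted p = 0.0152). The call rests on all 3 ONC libraries, since the adjusted p was between 0.0512 and 0.0586 when any of ONC replicates 1, 2 and 3 was left out.

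Ctsz was at 12.1, 13.3 and 14.0 RPKM in TPEN, above Ctrl and below ONC in every library. Its log2 fold change in TPEN/ONC was -0.55 (SE 0.12, limma adjusted p = 0.0200). The adjusted p rose to between 0.0529 and 0.0771 without ONC replicate 2, ONC replicate 3, TPEN replicate 1 or TPEN replicate 2. Ctsd was at 41.5, 41.3 and 43.0 RPKM in TPEN, which was again intermediate without overlap. Its log2 fold change was -0.34 (SE 0.05, limma adjusted p = 0.00248). It passed in the 16 alternatives that tested Ctsd for any change, but not in the test against a 1.5-fold change.

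Ctsa was at 7.40, 6.10 and 6.19 RPKM in TPEN. TPEN replicate 1 stood between Ctrl and ONC and the other 2 libraries below all Ctrl libraries. The log2 fold change in TPEN/ONC was -0.30 (limma adjusted p = 0.0385), with an adjusted p between 0.00475 and 0.129 in its 16 alternatives and above 0.05 in 9 of them. These were the fit with the replicate number as a block, the fit of the 6 libraries compared, and the fits without Ctrl replicate 1 or 2, any ONC library, or TPEN replicate 2 or 3. Ctsb was at 36.9, 36.5 and 37.6 RPKM in TPEN, between the other groups without overlap. It had a log2 fold change of -0.13 (limma adjusted p = 0.0311), which missed the threshold after removal of any single library of ONC or TPEN (0.0615 to 0.0972), after quantile normalization (0.0718) and with the block (0.0724). With the block Ctsa had 0.0693.

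Ctsc was at 0.508, 0.620 and 0.621 RPKM in TPEN, with no overlap with ONC. Its log2 fold change was -0.65 (SE 0.18, 95% interval -1.04 to -0.25, limma adjusted p = 0.0596). It passed with voom (0.00776), with 1 RPKM added (0.0248), and with no filter on low values or without Ctrl replicate 3 (0.0450 in each). Ctsl was at 22.8, 24.6 and 24.5 RPKM in TPEN, above all Ctrl and below all ONC libraries. It had a log2 fold change of -0.14 (95% interval -0.24 to -0.05, limma adjusted p = 0.0668) and passed in no alternative. Ctsf was at 40.6, 39.8 and 40.2 RPKM in TPEN, within the range of ONC, with a log2 fold change of -0.03 (95% interval -0.14 to 0.08, limma adjusted p = 0.762).

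Against intact retinas, the TPEN libraries kept a higher level of most cathepsins. Of the 9 members, 6 were higher in TPEN/Ctrl at an adjusted p under 0.05 (Ctss, Ctsc, Ctsh, Ctsz, Ctsl and Ctsd), against 8.36% of all genes tested, and 3 also at 1.5-fold (Ctss, Ctsc and Ctsh), against 3.45%. Ctsf was lower, as were 5.01% of all genes, but by less than 1.5-fold, a limit that 0.457% of all genes passed downward. Ctss had a log2 fold change of 2.69 (SE 0.09, limma adjusted p = 5.87e-08) and was 6.54-fold higher in mean level. The others had log2 fold changes of 1.39 (Ctsc), 0.73 (Ctsh), 0.50 (Ctsz), 0.20 (Ctsl) and 0.19 (Ctsd), with limma adjusted p of 6.87e-04, 0.0301, 0.0197, 0.00910 and 0.0269. Ctsf had a log2 fold change of -0.17 (limma adjusted p = 0.0458). Leaving out 1 library raised the adjusted p above 0.05 for Ctsh and Ctsz without Ctrl replicate 1, Ctrl replicate 2, TPEN replicate 2 or TPEN replicate 3. The same happened to Ctsd without Ctrl replicate 2 or any TPEN library, and to Ctsf without Ctrl replicate 2, Ctrl replicate 3, ONC replicate 1 or any TPEN library. Ctsd and Ctsh also missed the threshold after quantile normalization (adjusted p of 0.0506 and 0.0904) and in a fit of the 6 libraries compared (0.0507 and 0.0822), and Ctsf did so with the replicate number as a block (0.0753). Ctsb (0.10, limma adjusted p = 0.0618) and Ctsa (0.02, limma adjusted p = 0.926) did not pass. The value of Ctsa was -0.07 without TPEN replicate 1, so its direction is not settled.

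The rise from Ctrl to ONC that remained in TPEN can be given as a share, although the comparisons share the Ctrl and ONC libraries and these shares are descriptions. With the mean of Ctrl set to 0% and that of ONC to 100%, the TPEN libraries stood at 53.9% ± 1.50 for Ctss (SD, n = 3), 52.1% ± 8.01 for Ctsc and 56.0% ± 18.1 for Ctsl. They stood at 41.2% ± 9.52 for Ctsb, 38.0% ± 9.79 for Ctsz, 31.0% ± 5.66 for Ctsd and 30.6% ± 14.9 for Ctsh. Ctsa, at 5.84% ± 44.9, ranged over both sides of the Ctrl mean. The SD covers the TPEN libraries only. The spread was narrowest for Ctss and widest for Ctsa.

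The members did not change by equal amounts within a library. The log2 ratio of each of the other 8 genes to Ctsd was set side by side for the 3 groups and tested by exact permutation of the group labels over the libraries, which has 280 arrangements and a smallest possible p of 0.00357. Scaling between libraries has little bearing on a ratio within a library. Ctss went from a log2 ratio to Ctsd of -2.95 ± 0.114 in Ctrl to -0.0043 ± 0.132 in ONC and -0.45 ± 0.0364 in TPEN (SD, n = 3, exact permutation p = 0.00357). The ratio of Ctsf moved the other way, from 0.30 ± 0.0983 in Ctrl to -0.37 ± 0.140 in ONC and -0.06 ± 0.0321 in TPEN (exact permutation p = 0.00357). Ctsd itself had log2 fold changes of 0.53 in ONC/Ctrl and -0.34 in TPEN/ONC, beside -0.14 and -0.03 for Ctsf. A ratio that moved therefore need not mean that its numerator did. Ctsc, Ctsh and Ctsb reached the same smallest p, Ctsz had 0.0107 and Ctsl 0.0321, all exact. After Benjamini-Hochberg adjustment over the 8 ratios these 7 were at 0.00571 to 0.0367, and Ctsa, at an exact permutation p of 0.157, did not pass. The adjusted permutation p of Ctsl was 0.0531 to 0.0939 without Ctrl replicate 1, any ONC library, or TPEN replicate 2 or 3. That of Ctsh was 0.0531 with 1 RPKM added, and that of Ctsz 0.0524 without ONC replicate 2. Ctsa passed without TPEN replicate 1 (0.025). From Ctrl to ONC the ratio to Ctsd increased for Ctss, Ctsc (by 1.51), Ctsh (by 1.15) and Ctsz (by 0.52) and was lower in mean for Ctsf (-0.67), Ctsb (-0.30), Ctsa (-0.21) and Ctsl (-0.18).

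The sum of the 9 cathepsins was 244 ± 3.36 RPKM in ONC and 195 ± 2.96 RPKM in TPEN, which made it 53.8% higher in ONC than in Ctrl and 20.2% lower in TPEN than in ONC. Ctss supplied 56.6% of the increase from Ctrl to ONC, Ctsd 19.1% and Ctsz 11.8%. The share of Ctss in the sum went from 2.95% in Ctrl to 21.7% in ONC and 15.8% in TPEN, and that of Ctsf from 28.6% to 16.8% and 20.6%. In ONC the order of levels was Ctsd, Ctss, Ctsf, Ctsb, Ctsl, Ctsz, Ctsa, Ctsh and Ctsc. The libraries of Ctsd overlapped those of Ctss, and those of Ctsf overlapped those of Ctsb. In TPEN the order was Ctsd, Ctsf, Ctsb, Ctss, Ctsl, Ctsz, Ctsa, Ctsh and Ctsc, and Ctsh and Ctsc were the only neighbours that overlapped.

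**Figure D3:**
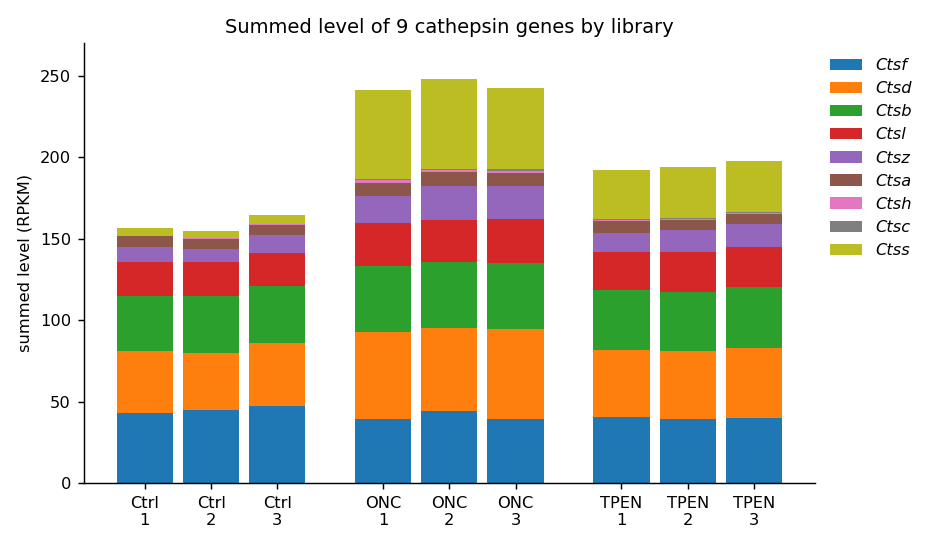
Summed level of the 9 listed cathepsins in each library (vertical axis in RPKM, from 0), with 1 bar per library and 1 colour per gene. The band of Ctss is thin in Ctrl and makes up 21.7% of the bar in ONC and 15.8% in TPEN. The band of Ctsf at the foot of the bars changes less, with means of 45.4, 41.1 and 40.2 RPKM in Ctrl, ONC and TPEN.

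Markers of several cell types differed between the groups. Of 18 markers of microglia and macrophages, 16 were listed (Tyrobp and Mrc1 were not), and their summed level was 9.83 to 10.2 RPKM in Ctrl, 76.2 to 79.6 RPKM in ONC and 38.3 to 40.9 RPKM in TPEN. Fcrls and Cd14 were at 0 in Ctrl replicate 3, and no other listed marker was at 0 in a library. All 14 markers that were tested were higher in ONC/Ctrl at an adjusted p under 0.05 and 1.5-fold, against 4.58% of all genes. Their median log2 fold change was 2.76. Several, such as Cd14 (0.0373 RPKM in Ctrl) and Fcrls (0.0626 RPKM), passed the filter for testing only through the injured groups. That count and median were therefore partly set by the filter. In TPEN/ONC 7 of the 14 fell at an adjusted p under 0.05, against 4.14% of all genes, with a median of -0.85. The summed marker level of ONC was 7.81 times that of Ctrl and 1.96 times that of TPEN. The corresponding ratios of Ctss were 11.3 and 1.73.

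Divided by the summed marker level within each library, Ctss was at 0.471 ± 0.0574 in Ctrl, 0.681 ± 0.0513 in ONC and 0.775 ± 0.0330 in TPEN (SD, n = 3). The 3 groups did not overlap, with Ctrl lowest and TPEN highest. Ctsc was at 0.0162 ± 0.00428 in Ctrl, 0.0125 ± 0.00145 in ONC and 0.0147 ± 0.00176 in TPEN, with overlap between all groups. Ctsd, in contrast, went from 3.70 ± 0.192 in Ctrl to 0.682 ± 0.0102 in ONC and 1.06 ± 0.0180 in TPEN, and Ctsa, Ctsb, Ctsf, Ctsh, Ctsl and Ctsz likewise had their highest ratio in Ctrl. The astrocyte markers, 4 of 6 listed, summed to 6.60 to 6.90 RPKM in Ctrl, 28.0 to 28.9 RPKM in ONC and 18.3 to 20.9 RPKM in TPEN. Most of the change in this sum was that of Gfap, with means of 2.79, 22.2 and 14.4 RPKM. In ONC/Ctrl 2 of the 4 were higher (Gfap and Aldh1l1), while S100b and Agt did not pass (limma adjusted p = 0.507 and 0.869). The markers of Müller glia (8 of 8 listed) summed to 553 to 574, 617 to 629 and 487 to 498 RPKM in Ctrl, ONC and TPEN, but the members of this list went apart. In ONC/Ctrl 2 of the 8 were higher and 3 lower at a limma adjusted p under 0.05, with a median log2 fold change of -0.07. In TPEN/ONC 2 were higher and 4 lower. By that rule 11.7% of all genes were higher and 6.97% lower in ONC/Ctrl, and 3.24% and 4.14% in TPEN/ONC. Vim, an intermediate filament gene, was at means of 19.0, 57.1 and 44.0 RPKM, and Glul, the glutamine synthetase gene, at 173, 116 and 103 RPKM. The RGC markers summed to 361 to 371 RPKM in Ctrl, 370 to 391 RPKM in ONC and 288 to 302 RPKM in TPEN. Most of this sum was Nefl, with means of 258, 264 and 198 RPKM. From Ctrl to ONC the means of Rbpms (0.605 to 0.393 RPKM), Pou4f1 (0.571 to 0.183 RPKM), Isl1 and Nefh were lower. Those of Nefl, Nefm, Sncg, Thy1, Stmn2 and Slc17a6 were higher. Rbpms, Pou4f1 and Slc17a6 were too low to be tested. Of the 7 that were tested, 3 were higher and 1 lower in ONC/Ctrl. In TPEN/ONC Nefl, Nefm and Sncg were lower, with log2 fold changes of -0.42, -0.42 and -0.34 (limma adjusted p = 6.26e-05, 3.80e-04 and 0.0161), and Thy1 was higher (0.40, limma adjusted p = 0.00587). The part of any of these cells in the cathepsin levels was not tested. Of the neutrophil markers only Csf3r was listed, of 8, with a mean of 1.04 RPKM in ONC, and none of the 8 T cell markers was listed.

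**Figure D4:**
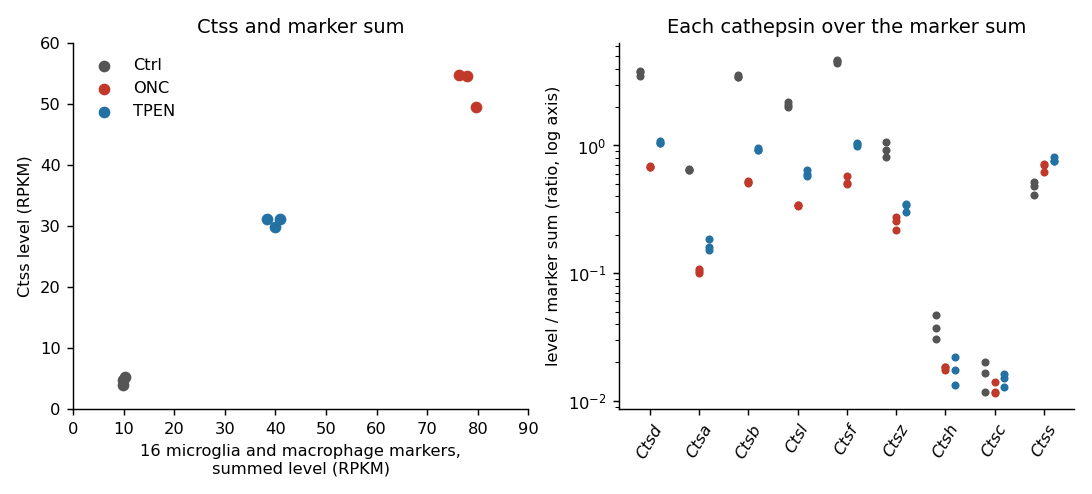
Left, level of Ctss against the summed level of 16 microglia and macrophage markers, 1 point per library (both axes in RPKM). Right, the level of each cathepsin divided by that summed level in the same library (log axis), in which Ctss is lowest in Ctrl, Ctsc overlaps between groups and the broadly expressed genes are highest in Ctrl.

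Other genes of the lysosome were read from lists by role. In these lists, rose and fell mean a limma adjusted p under 0.05 with no limit on the fold change. By that rule 11.7% of all genes tested rose and 6.97% fell in ONC/Ctrl. In TPEN/ONC the shares were 3.24% and 4.14%. Of the other lysosomal hydrolases and cofactors, 33 of 36 were listed and 29 tested. In ONC/Ctrl 9 rose and 1 (Smpd1, acid sphingomyelinase, named after its values were seen) fell, with a median log2 fold change of 0.18, and in TPEN/ONC 3 fell, with a median of -0.12. Grn, Psap and Gusb were among the genes with the lowest adjusted p in ONC/Ctrl. Grn, the gene of the lysosomal protein progranulin, was at 3.38 ± 0.295 RPKM in Ctrl, 8.96 ± 0.400 in ONC and 5.49 ± 0.484 in TPEN (SD, n = 3). Psap, which encodes the precursor of the saposins, was at 40.5 ± 0.447, 51.0 ± 1.36 and 42.4 ± 0.498 RPKM in the same order. Both were among the genes that fell in TPEN/ONC, with log2 fold changes of -0.70 and -0.27 (limma adjusted p = 0.00149 and 8.15e-04). Gusb, beta-glucuronidase, had an ONC/Ctrl value of 1.58 on the log2 scale and a TPEN/ONC value of -0.45 (limma adjusted p = 5.90e-05 and 0.107).

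Among 16 lysosomal membrane proteins, all tested, 7 rose and 1 fell in ONC/Ctrl and 3 fell in TPEN/ONC. The gene that fell after ONC was Laptm4b (-0.13 on the log2 scale), and those lower with TPEN were Cd68, Tcirg1 (-0.66) and Cln3 (-0.50), of which Laptm4b and Cln3 are named after their values were seen. Cd68, a glycoprotein of macrophage lysosomes, led with 0.323 ± 0.0877 RPKM in Ctrl, 3.46 ± 0.0900 in ONC and 1.44 ± 0.329 in TPEN (SD, n = 3). The ONC/Ctrl value of Cd68 was 3.09 on the log2 scale and the TPEN/ONC value -1.24 (limma adjusted p = 3.77e-06 and 0.00498). Laptm5, a lysosomal membrane gene of blood cells, Cd63 and Tcirg1 followed in ONC/Ctrl, with log2 fold changes of 2.61, 1.02 and 1.08. The median of the list was 0.13 in ONC/Ctrl and -0.07 in TPEN/ONC.

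Subunits of the V-ATPase, the pump that acidifies the lysosome, stayed near the values of all genes, with a median log2 fold change of 0.01 over 18 tested in ONC/Ctrl. There Atp6v1c1 rose (0.16) and Atp6v0e2 fell (-0.22), and in TPEN/ONC Atp6v0a1 rose (0.19, named after its values were seen). Of 9 tested genes for the maturation and sorting of lysosomal enzymes, Lgmn rose in ONC/Ctrl (0.22, limma adjusted p = 0.00389). Its product, asparaginyl endopeptidase, processes several cathepsins. In TPEN/ONC 0 genes of that list passed with limma or voom, and 1 (Lgmn, lower) had an unadjusted p under 0.05. Of the cathepsin inhibitors, 2 of 11 were listed, and both rose in ONC/Ctrl. Cstb, the cytosolic inhibitor stefin B, was at 4.33 ± 0.734 RPKM in Ctrl, 8.43 ± 2.14 in ONC and 5.50 ± 0.742 in TPEN (SD, n = 3), and Cst3, the secreted cystatin C, at 314 ± 11, 367 ± 30.3 and 346 ± 19.1 RPKM. In TPEN/ONC 0 of the 2 passed with limma or voom, and Cstb was lower at an unadjusted p of 0.0120. Tfeb, Tfe3 and Mitf were listed and tested, and 0 of the 3 passed in either comparison with limma, at an unadjusted p under 0.05, or with voom. They had log2 fold changes in ONC/Ctrl of 0.26, -0.01 and 0.23. Of 13 other cathepsin genes only Ctso was listed, at 0.903 ± 0.0838, 1.0 ± 0.161 and 1.01 ± 0.238 RPKM.

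The genes whose pattern was most like that of a called cathepsin were ranked by Pearson's r of log2(RPKM + 0.1) over the 9 libraries, as a description, with all 3 groups in the same r. For Ctss these were Fgf2, a growth factor gene (r = 0.998), Hk1 (hexokinase, 0.997) and Efhd2 (0.997). For Ctsc they were the stress-induced transcription factor gene Atf3 (0.996), Chd4 (0.995) and Cerkl (0.995), for Ctsh Nkd1 (0.994), Kremen1 (0.987) and Rgs10 (0.986), and for Ctsz Kat6a (0.989), Rnf31 (0.984) and Gm10252 (0.977). A high r did not mean an equal size of change. Fgf2 was at 2.62 ± 0.178 RPKM in Ctrl, 14.5 ± 0.0606 in ONC and 9.66 ± 0.330 in TPEN, while Hk1 was at 135 ± 1.89, 204 ± 2.39 and 190 ± 1.21 RPKM (SD, n = 3).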

How the data were processed

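RNA-seq levels of cells sorted as RGCs were compared between 3 groups of 3 libraries. Per the authors' methods, libraries were made with a stranded mRNA kit with molecular identifiers and mapped with STAR to GRCm38/mm10. The submitters' processing notes also name Trimmomatic 0.36. The deposited RPKM values are reads divided by exon length and library size, as given by the authors, and the counting program, the annotation, the use of strand and the collapsing of identical molecular identifiers are not given in the sources used here. The deposited exon length served as the unit of length. The authors' own fold changes and p-values in the same file were not used.

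Here, log2(RPKM + 0.1) was fitted with limma 3.58.1 (R 4.3.3) on group means of all 9 libraries, with a trend of variance on mean, over the 13566 genes averaging 0.5 RPKM or more, with Benjamini-Hochberg adjustment of the p-values. All tests are two-sided. The limits of 0.05 and 1.5-fold follow the study's methods. RPKM multiplied by exon length was a whole multiple of 1 step per library for all genes within 0.01 reads, so read numbers were recovered, which keeps sampling error visible for low genes, and were tested with limma's voom after scaling by trimmed means of M values. Log ratios to Ctsd were tested by exact permutation in Python (scipy 1.17.1). The fits were tested on simulated data. Replicate numbers are shared between groups, but same-numbered libraries did not deviate together (correlations of -0.0623 to 0.0268), so the fit has no block.

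The members and lists were chosen with earlier results of these data known. From each list, at most the 4 genes with the lowest adjusted p in ONC/Ctrl were named (1 such gene is not reported here), and for each called member the 3 genes most correlated with it among those averaging 1 RPKM or more. Promoter windows came from RefSeq (GRCm38.p6), searched on both strands.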

Additional observations from a re-analysis of the deposited data

How the results depend on the processing

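In all, 426 values of single cathepsins were recomputed under alternative settings, and 369 kept their direction and their side of an adjusted p of 0.05, 47 lost the threshold, 7 gained it and 3 changed sign. The changes of sign were those of Ctsf in TPEN/ONC without ONC replicate 2 (0.020, with -0.062 to 0.020 over single libraries left out) and of Ctsa in TPEN/Ctrl after quantile normalization (-0.0088) and without TPEN replicate 1 (-0.073, with -0.073 to 0.064 over single libraries left out), none of which passed a test. Of the counts at 1.5-fold, the 4 higher members in ONC/Ctrl became 2 with a mean of at least 1 RPKM, which removes Ctsc and Ctsh, and 8 with the adjusted p alone. The 2 lower members in TPEN/ONC became 1 with 1 RPKM added, 1 with a mean of at least 1 RPKM, 0 in a test against 1.5-fold (limma's treat) and 6 with the adjusted p alone. With voom they were 3. Leaving out single libraries gave 1 to 3, with 1 without ONC replicate 2 or ONC replicate 3. The 3 higher members in TPEN/Ctrl became 1 with 1 RPKM added, 1 with a mean of at least 1 RPKM, 1 in the test against 1.5-fold and 6 with the adjusted p alone, where 1 lower member also passed. Where no construction of the setting shows it, the cause was not tested. With the replicate number as a block, the counts at 1.5-fold were again 4, 2 and 3, and an adjusted p under 0.05 was lost by Ctsa (0.0693) and Ctsb (0.0724) in TPEN/ONC and by Ctsf in TPEN/Ctrl (0.0753). The labels share only the numbers. The count of ratios to Ctsd that differed between the groups was 5 to 8 over its alternatives. Ctsc and Ctsh rest on under 50 reads per library in Ctrl, and the effect of depth on their fold changes was not tested.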
